A study of Mus musculus with 12 samples.

Results

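The serum amyloid A genes of the mouse, Saa1, Saa2, Saa3 and Saa4, were followed in total RNA of liver and small intestine. They were taken by gene symbol from the deposited expression table, and all 4 were found among its 34348 genes. The mice were C57BL/6 and had been treated with LCWE or, as controls, with phosphate-buffered saline (PBS), which gave 4 groups of 3 libraries: liver LCWE, liver PBS, small intestine LCWE and small intestine PBS. LCWE is not spelled out in the labels; it commonly denotes the Lactobacillus casei cell wall extract that is injected into mice to bring about a vasculitis resembling Kawasaki disease. The treated groups are called LCWECFA in the headers of the authors' differential table, and whether the added letters mean a further agent given with LCWE is not stated. The labels give no dose, time, age or sex, and are silent on whether each library is a separate mouse, so the p-values measure the spread between these libraries, which may be technical in part. Libraries carry the replicate numbers of the labels, 1, 2 and 4 for LCWE and 2, 3 and 4 for PBS.

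Serum amyloid A proteins are small apolipoproteins. SAA1 and SAA2 are acute phase proteins: in inflammation hepatocytes make and secrete them in large amounts under the control of interleukin-6, interleukin-1 and tumour necrosis factor, which act through the factors STAT3, C/EBP and NF-kB, and in blood they ride on high-density lipoprotein and can bind retinol. SAA4 is the constitutive member, which the liver makes without inflammation. In the mouse, SAA3 is made mainly outside hepatocytes, among others by macrophages, adipocytes and epithelium of the gut, where Saa1 and Saa2 can also be induced by bacteria attached to the ileal wall. Long-lasting high SAA is known for its deposition as amyloid.

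The 4 genes lie within one cluster on chromosome 7 (mm10, positions of the deposited table), in the order Saa3 at chr7:46711998-46715700 on the minus strand, Saa4 at chr7:46727998-46732603 on the minus strand, Saa1 at chr7:46740497-46742980 on the minus strand and Saa2 at chr7:46751790-46754313 on the plus strand. Saa1 and Saa2 thus run away from each other. Their promoters are printed here because these genes gave the highest fold changes of the liver and because the sequences show how near to each other they are. Each run is the 250 bases before the RefSeq gene start on the gene's own strand (build GRCm38.p6). Capitals mark matches on either strand to the C/EBP-type motif TTGCNNAA or to the NF-kB consensus, named only; no capitals of one motif overlap those of the other.
Saa1, chr7:46742981-46743230, minus strand: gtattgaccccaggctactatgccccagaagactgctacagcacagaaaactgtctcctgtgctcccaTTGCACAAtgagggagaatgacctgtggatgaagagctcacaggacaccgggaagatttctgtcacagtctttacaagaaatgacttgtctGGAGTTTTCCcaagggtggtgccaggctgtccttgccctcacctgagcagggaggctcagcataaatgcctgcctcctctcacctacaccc
Saa2, chr7:46751583-46751832, plus strand: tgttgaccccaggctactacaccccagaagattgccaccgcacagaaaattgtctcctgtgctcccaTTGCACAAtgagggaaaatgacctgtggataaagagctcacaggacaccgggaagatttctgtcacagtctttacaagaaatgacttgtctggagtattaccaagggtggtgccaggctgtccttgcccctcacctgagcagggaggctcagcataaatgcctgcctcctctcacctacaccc
Saa3, chr7:46715677-46715926, minus strand: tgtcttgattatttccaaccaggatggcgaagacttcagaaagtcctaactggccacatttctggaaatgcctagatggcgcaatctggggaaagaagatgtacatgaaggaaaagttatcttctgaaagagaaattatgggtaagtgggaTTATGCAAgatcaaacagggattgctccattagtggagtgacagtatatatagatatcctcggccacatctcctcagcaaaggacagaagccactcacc
Saa4, chr7:46732604-46732853, minus strand: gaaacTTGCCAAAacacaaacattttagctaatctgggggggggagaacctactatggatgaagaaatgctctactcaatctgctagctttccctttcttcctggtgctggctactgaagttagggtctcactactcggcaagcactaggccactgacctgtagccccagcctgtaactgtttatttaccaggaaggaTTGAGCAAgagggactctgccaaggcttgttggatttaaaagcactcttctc

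The promoters of Saa1 and Saa2 were identical at 238 of 251 aligned positions (94.8%), whereas every other pair was identical at 42.6% to 48.9% of aligned positions. The C/EBP-type motif matched once in Saa1 (bases -182 to -175 relative to the start), once in Saa2 (-183 to -176), once in Saa3 (-99 to -92) and at 2 places in Saa4 (-245 to -238 and -52 to -45). Of 32851 mouse promoters of the same length, 9.56% held it. The NF-kB consensus matched in Saa1 alone (-91 to -82), and 8.87% of all promoters held it. At the same place Saa2 differed from Saa1 by 2 substitutions, T6A and C9A, counted from 1 at the first base of the Saa1 match with the base of Saa1 written first. The STAT-type motif TTCNNNGAA matched in none of the 4 windows and in 7.02% of all promoters. These letters were searched after the sequences had been seen, and a match is no measured binding site.

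The 6 liver libraries held 34741958 to 44921885 reads in genes and the 6 intestinal libraries 30294594 to 40253006. The tissue labels were checked on Alb, which encodes the albumin of hepatocytes, at 10519 to 13391 RPKM in liver LCWE and 13375 to 23555 RPKM in liver PBS, against 51.6 to 145 RPKM in all intestinal libraries, and on Fabp2, the fatty acid binding protein of enterocytes, at 38.6 to 113 RPKM in liver against 676 to 9408 RPKM in the intestine. RPKM divides a gene's reads by its length in kilobases and by the library's total of reads in genes. The intestinal libraries were not alike in position markers. Fabp6, the bile acid binding protein of the ileum, stood at 3517 to 4843 RPKM in intestinal LCWE, against 69.4, 1716 and 2991 RPKM in PBS replicates 2, 3 and 4. Apoa4, an apolipoprotein of the upper intestine, stood at 127 to 454 RPKM in intestinal LCWE, against 6795, 3054 and 1365 RPKM in PBS replicates 2, 3 and 4. Both genes separated every LCWE intestine from every PBS intestine. Treatment and gut position can therefore not be told apart in the intestinal effects or in the differences between tissue effects. Not every marker split the groups: 8 proximal markers summed to 54.0 to 126 RPKM in LCWE and 107 to 1675 RPKM in PBS, with overlap. Of 4 proximal markers tested, 1 was higher in LCWE, Slc40a1 (1.95 ± 0.375 RPKM against 0.672 ± 0.280 RPKM). All 6 ileal markers tested were higher, but Fgf15 hardly (log2 fold change 0.19). Apoa4 is also an enterocyte marker, and of 8 such markers tested 0 were higher. The part of enterocyte content was not tested. The intestinal effects of the 4 genes are also given with each PBS library left out, which shows only how far they rest on single libraries.

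In liver, 3 of the 4 serum amyloid A genes rose with LCWE, Saa2 50.3-fold, Saa1 29.1-fold and Saa3 3.39-fold, whereas the constitutive Saa4 was 1.87-fold higher and did not pass the test. The test was limma on log2(RPKM + 0.5), two-sided, with Benjamini-Hochberg adjustment over the 14404 genes tested in liver and calls at an adjusted p below 0.05. Of all genes tested, 3.39% were called higher. In bulk tissue, a change in the number of cells of a type and a change in RNA per cell cannot be told apart.

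Saa2 stood at 513, 862 and 457 RPKM in liver LCWE replicates 1, 2 and 4, against 15.8, 8.31 and 10.6 RPKM in liver PBS replicates 2, 3 and 4. The lowest LCWE library was far above the highest PBS library. The means were 611 ± 220 RPKM in LCWE and 11.6 ± 3.81 RPKM in PBS (SD, n = 3 each), a log2 fold change of 5.65 (SE 0.30), or 50.3-fold (limma adjusted p = 0.00327). This was the largest log2 fold change of the 14404 genes. Saa1 stood at 282, 386 and 279 RPKM in liver LCWE, against 19.8, 6.37 and 8.33 RPKM in liver PBS. It ranked directly after Saa2, with means of 316 ± 60.7 RPKM in LCWE and 11.5 ± 7.26 RPKM in PBS (SD, n = 3 each), a log2 fold change of 4.87 (SE 0.39), or 29.1-fold (limma adjusted p = 0.00557). The groups did not overlap for either gene, and both were highest in LCWE replicate 2. Among PBS livers, replicate 2 was the highest for both, at 3.11 times the lowest PBS library for Saa1 and 1.90 times for Saa2.

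Because Saa1 and Saa2 are near-identical copies, the authors' counting may have split reads between them. Their coding sequences were identical at 351 of 369 positions (95.1%) in the GENCODE M21 transcripts. Of all stretches of 50 bases in the coding transcripts, 14.8% of those of Saa1 and 8.46% of those of Saa2 also occurred in another member; at 100 bases there were none. Read as 1 gene, the summed RPKM was 927 ± 280 in liver LCWE and 23.1 ± 11.03 in liver PBS (SD, n = 3 each), 40.9-fold (limma adjusted p = 0.00569). The summed value does not depend on how reads were divided between the copies, whereas the separate folds may. Whether reads matching both copies were counted at all is not stated, and the sum cannot restore reads that were left out. The stretches were compared over coding transcripts only, not over the longer deposited gene lengths.

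Saa3 was low in liver but rose. It stood at 6.45, 4.89 and 4.04 RPKM in LCWE replicates 1, 2 and 4, against 1.14, 1.32 and 0.966 RPKM in PBS replicates 2, 3 and 4, without overlap. The fold change was 3.39 (log2 1.76, SE 0.18, limma adjusted p = 0.00760), from 366 to 638 reads per library in LCWE and 99 to 133 reads in PBS. Without LCWE replicate 2 the log2 fold change was 1.78 and the adjusted p was 0.0521, so that the call was lost with an almost equal effect. In the same livers, markers of macrophages, a cell type that makes SAA3, were higher: the summed RPKM of 10 listed markers was 364 to 628 in LCWE and 141 to 192 in PBS. All 9 markers tested were higher and 6 of the 9 were called, where 3.39% of all genes tested in liver were called higher. Among those called were Marco, a scavenger receptor (197 ± 109 RPKM in LCWE and 25.7 ± 16.1 RPKM in PBS), and Lyz2, lysozyme (126 ± 27.1 RPKM in LCWE and 45.3 ± 10.1 RPKM in PBS). The part of macrophage content in the Saa3 value was not tested.

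Saa4 had the highest RPKM of the family in PBS livers. It stood at 687, 846 and 492 RPKM in LCWE replicates 1, 2 and 4, against 399, 301 and 362 RPKM in PBS replicates 2, 3 and 4. All 3 LCWE libraries were above all 3 PBS libraries, a pattern that 18.7% of genes tested in liver showed in this direction. The log2 fold change was 0.91 (SE 0.22), or 1.87-fold, and did not pass the test (limma adjusted p = 0.0714). It passed without LCWE replicate 4, the lowest of its group (log2 fold change 1.12, limma adjusted p = 0.046), and in 1 fit over all 4 groups, which shares the spread between tissues (0.91, limma adjusted p = 0.0392). The median log2 fold change of all genes tested in liver was 0.06.

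The authors' deposited table lists 797 genes for liver. It holds Saa2 with a log2 fold change of 5.83 (false discovery rate 0.000377), Saa1 with 4.82 (0.000679) and Saa3 with 2.19 (0.000827), and does not list Saa4. Every gene it lists for this comparison has a fold of at least 2.

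**Figure D1:**
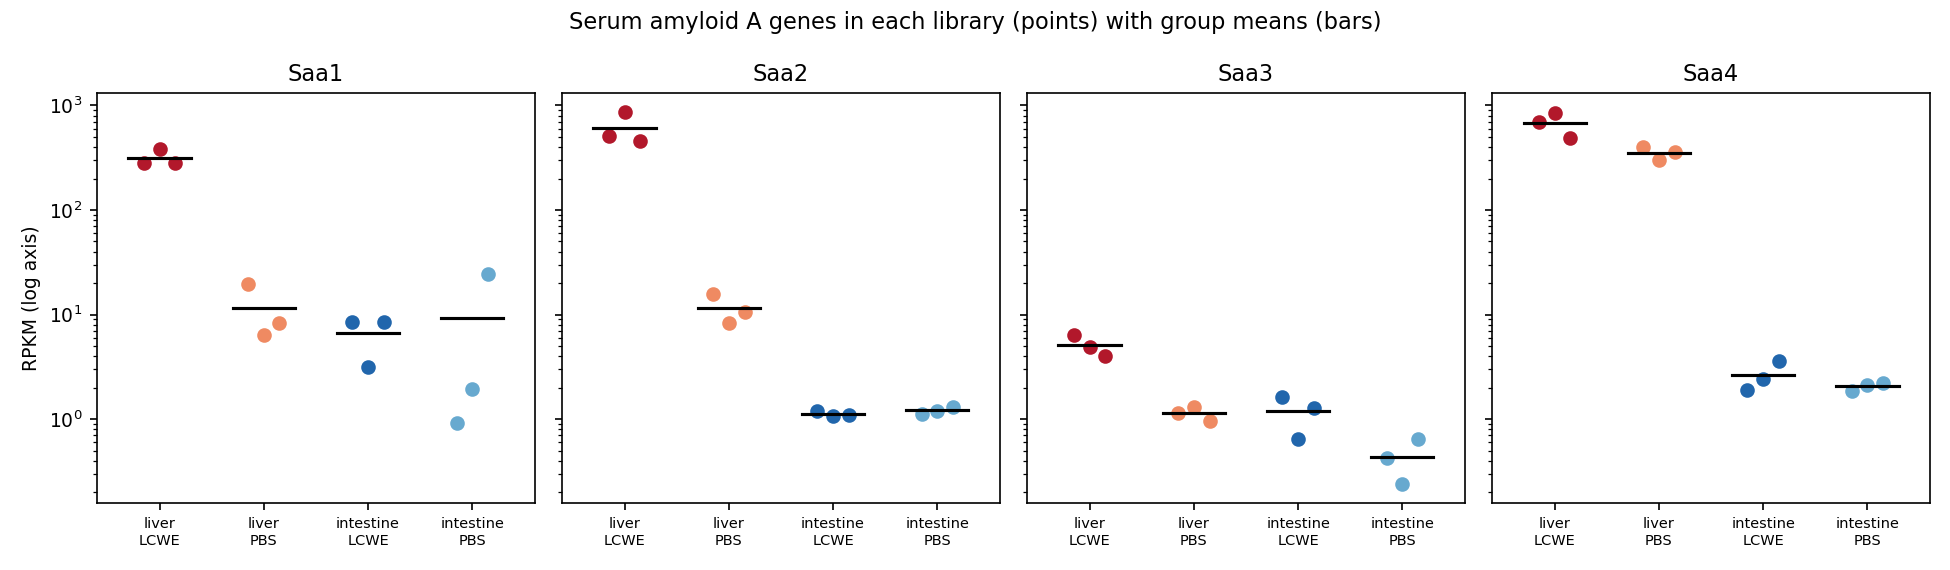
RPKM of each serum amyloid A gene (log axis) in the 12 libraries, 1 panel per gene; points are libraries and black bars are means of 3 libraries in liver LCWE, liver PBS, small intestine LCWE and small intestine PBS. Saa1 and Saa2 in liver LCWE lie above 279 RPKM and in liver PBS at 19.8 RPKM or less, while intestinal Saa1 spans 0.930 to 24.7 RPKM within the PBS group.

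In the small intestine none of the 4 genes passed the test, and none of all 17510 genes tested was called (0% called by limma, with 2202 genes, or 12.6%, at an unadjusted p below 0.05). With limma voom on the recovered reads there were also 0 calls, and 1 fit over the 4 groups called 213 genes. Without LCWE replicate 1 the intestinal fit called 70 genes and without LCWE replicate 2 it called 4, while leaving out any 1 PBS library gave 0 calls. The 4 genes together took 0.288% to 0.491% of reads in liver LCWE and 0.0670% to 0.0927% in liver PBS. In the intestine they took 0.00173% to 0.00346% in LCWE and 0.00102% to 0.00709% in PBS. The 95% Wilson interval of any of these shares was at most 0.00409 percentage points wide and covers counting error only.

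Saa2 was low and nearly even in the intestine, at 1.19, 1.08 and 1.10 RPKM in LCWE replicates 1, 2 and 4, against 1.13, 1.20 and 1.31 RPKM in PBS replicates 2, 3 and 4. The groups overlapped and the log2 fold change was -0.08, with a 95% confidence interval of -0.36 to 0.20 (limma adjusted p = 0.747). With each PBS library left out in turn it was -0.11 to -0.04. Each of these libraries held 94 to 121 Saa2 reads. A rise of the liver's size lies far outside this interval.

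Saa1 varied more between PBS intestines than between the groups. It stood at 8.45, 3.14 and 8.45 RPKM in LCWE replicates 1, 2 and 4, against 0.930, 1.97 and 24.7 RPKM in PBS replicates 2, 3 and 4, and the highest PBS library had 26.6 times the level of the lowest. The log2 fold change was 0.57 (SE 1.04, 95% confidence interval -1.90 to 3.04, limma adjusted p = 0.791). It was 1.82 without PBS replicate 4 (limma adjusted p = 0.293) and -0.25 without PBS replicate 2 (limma adjusted p = 0.943), and 0.14 without PBS replicate 3, so that single libraries set both its size and its direction. PBS replicate 4 also had the most of Adipoq, the adiponectin of fat cells, with 14.2 RPKM, after 8.01 RPKM in PBS replicate 3, 1.18 RPKM in PBS replicate 2 and 0.128 to 0.612 RPKM in LCWE. The summed RPKM of 8 adipocyte markers was 13.2 to 21.9 in LCWE and 53.2 to 101 in PBS, and that of 6 ileal markers was 4227 to 6353 in LCWE and 439 to 3942 in PBS, lowest in PBS replicate 2. The part of fat or of gut position in the Saa1 levels was not tested.

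Saa3 stood at 1.63, 0.653 and 1.28 RPKM in intestinal LCWE replicates 1, 2 and 4, against 0.422, 0.240 and 0.646 RPKM in PBS replicates 2, 3 and 4. The groups just missed each other, with LCWE replicate 2 next to PBS replicate 4, and 13.2% of genes tested in the intestine were likewise higher without overlap. The log2 fold change was 0.83 (SE 0.27), or 1.78-fold, with a limma adjusted p of 0.332. Leaving out PBS replicate 2, 3 or 4 gave 0.83, 0.67 and 0.99, and it passed in none of these fits. The libraries held 59 to 171 Saa3 reads in LCWE and 20 to 51 in PBS. The authors' deposited table, which lists 220 genes for the intestine, gives Saa3 a log2 fold change of 1.09 with p = 0.0373 and a false discovery rate of 0.484, and lists none of the other members. The summed RPKM of the macrophage markers was 152 to 218 in intestinal LCWE and 127 to 160 in intestinal PBS. None of the 9 tested passed, where 0% of all genes tested in the intestine did.

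Saa4 stood at 1.91, 2.44 and 3.61 RPKM in intestinal LCWE, against 1.88, 2.10 and 2.22 RPKM in intestinal PBS, with overlap. The log2 fold change was 0.26 (95% confidence interval -0.22 to 0.75, limma adjusted p = 0.556), and 0.21 to 0.31 with each PBS library left out in turn. The highest of these, LCWE replicate 4, also had the highest Alb of the intestine, 145 RPKM against 51.6 to 60.2 RPKM in the other intestinal libraries. Any link between the Saa4 and Alb levels was not tested.

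**Figure D2:**
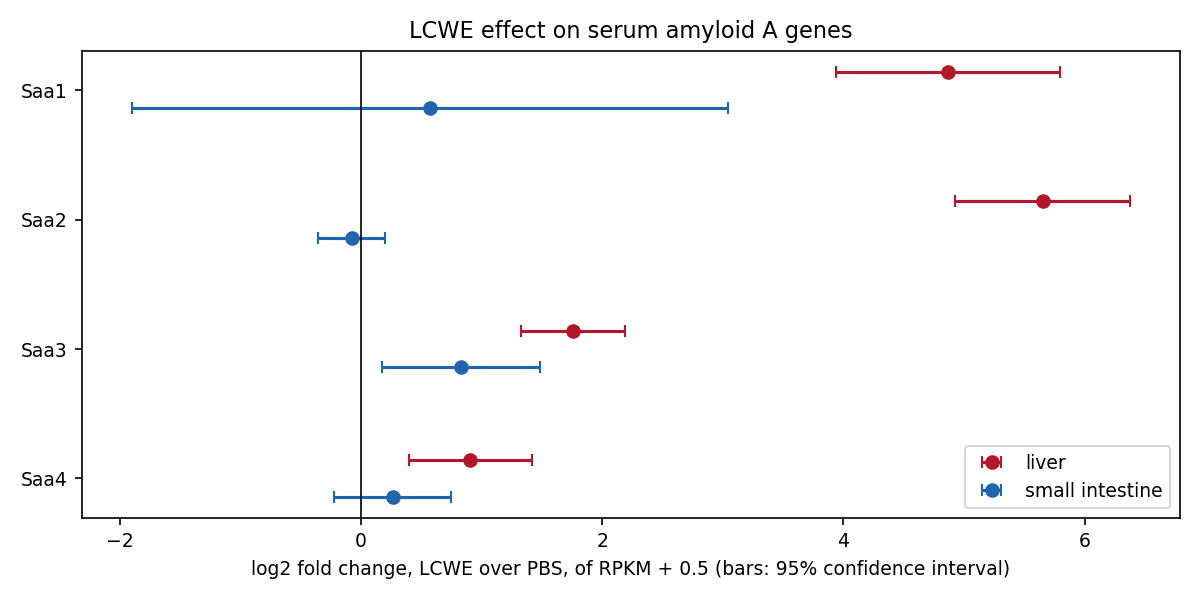
Log2 fold change of LCWE over PBS for each gene in liver and small intestine, with 95% confidence intervals from limma on log2(RPKM + 0.5). The liver values run from 0.91 for Saa4 to 5.65 for Saa2, and the intestinal interval is widest for Saa1, from -1.90 to 3.04.

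Whether LCWE acted differently on the family in the 2 tissues was tested with the interaction term of 1 fit over the 12 libraries, that is, the effect in liver minus that in the intestine. Of 18619 genes tested, 48.5% had a higher effect in liver by sign alone, and 0.532% were called higher at an adjusted p below 0.05. Saa2 was one of those called, with the largest difference of all genes and the smallest p (log2 difference 5.73, SE 0.34, limma adjusted p = 6.14e-05). The difference for Saa1 was 4.29 (SE 1.22, 95% confidence interval 1.61 to 6.97), which ranked 7 of 18619 by size but did not pass (limma adjusted p = 0.138), with the wide intestinal spread in its error. For Saa1 and Saa2 read as 1 gene it was 5.04 (limma adjusted p = 0.0526), and 4.003 without intestinal PBS replicate 4, which passed (limma adjusted p = 0.0168). Saa3 and Saa4 gave 0.93 (limma adjusted p = 0.271) and 0.64 (limma adjusted p = 0.424), so that a tissue difference was not shown for either.

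Between PBS tissues, Saa4 separated liver from intestine most widely, with 354 ± 49.4 RPKM in liver PBS and 2.07 ± 0.176 RPKM in intestinal PBS (SD, n = 3 each; log2 difference 7.10, 137-fold, limma adjusted p = 1.34e-10). Saa2 was 6.81 times higher in liver (log2 2.77, limma adjusted p = 9.03e-07) and Saa3 1.78 times higher (log2 0.83, limma adjusted p = 0.00840). For Saa1 the log2 difference was 1.26 (limma adjusted p = 0.199), and 2.51 without intestinal PBS replicate 4 (limma adjusted p = 0.000967). The background here is high: 16.6% of genes tested were called higher in liver, and the median log2 difference of all genes was -0.69.

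In LCWE livers 3 genes shared the family's RPKM, whereas Saa4 made up most of it in PBS livers. Of the summed family RPKM, Saa4 took 39.9% to 46.2% in LCWE livers and 91.6% to 94.9% in PBS livers. Saa2 took 34.5% to 41.1% in LCWE livers and 2.62% to 3.62% in PBS livers, and Saa1 took 18.4% to 22.7% in LCWE livers and 2.01% to 4.55% in PBS livers. No share of these 3 genes overlapped between LCWE and PBS livers. In the intestine the shares of all 4 genes overlapped between LCWE and PBS. These shares rest on the deposited gene lengths, and per kilobase of coding transcript they were very different.

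The gene lengths behind these levels differ in kind, which matters for comparing one member with another. The deposited length of Saa1 is 2478 bases of a locus of 2484, and that of Saa2 is 2518 of 2524, nearly the whole gene with its introns, whereas the coding transcripts have 609 and 652 bases in GENCODE M21. For Saa3 the deposited length is 2606 bases and the coding transcript 555, and for Saa4 both are 2094. Reads were counted over the deposited lengths, so any reads outside the coding transcripts of Saa1, Saa2 and Saa3 stay in the values below. Such reads would raise these genes against Saa4 on the transcript scale, and their number is not known. Per kilobase of coding transcript, Saa2 stood highest in LCWE livers at 2359 ± 848 on the RPKM scale, above Saa1 at 1285 ± 247, Saa4 at 675 ± 177 and Saa3 at 24.1 ± 5.74 (SD, n = 3 each). On this scale the lowest Saa2 library (1765) was above the highest Saa1 library (1570), and the lowest Saa1 library (1137) above the highest Saa4 library (846). As shares of the family on this scale, Saa4 took 14.4% to 17.9% in LCWE livers and 73.1% to 82.4% in PBS livers, Saa2 51.5% to 57.7% in LCWE livers and 8.79% to 11.2% in PBS livers, and Saa1 27.2% to 33.3% in LCWE livers and 7.10% to 14.8% in PBS livers. On both scales Saa4 held a smaller share, and Saa1 and Saa2 larger shares, in every LCWE liver than in any PBS liver. On the scale of deposited RPKM the order at the top was Saa4, Saa2, Saa1, with Saa4 and Saa2 overlapping. In PBS livers Saa4 led on both scales, and per coding transcript Saa1 (46.8 ± 29.5) and Saa2 (44.7 ± 14.7) overlapped. In the intestine Saa1 had the highest mean per coding transcript in both groups, 27.2 ± 12.5 in LCWE and 37.4 ± 54.7 in PBS, and in PBS its range of 3.78 to 101 took in the Saa2 level of 4.70 ± 0.345. A plain ratio of levels within a gene does not depend on the choice of length, but a fold on the log2(RPKM + 0.5) scale does where levels are low: with a pseudocount of 0.1 in place of 0.5 the log2 fold change of liver Saa3 was 2.06 in place of 1.76.

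**Figure D3:**
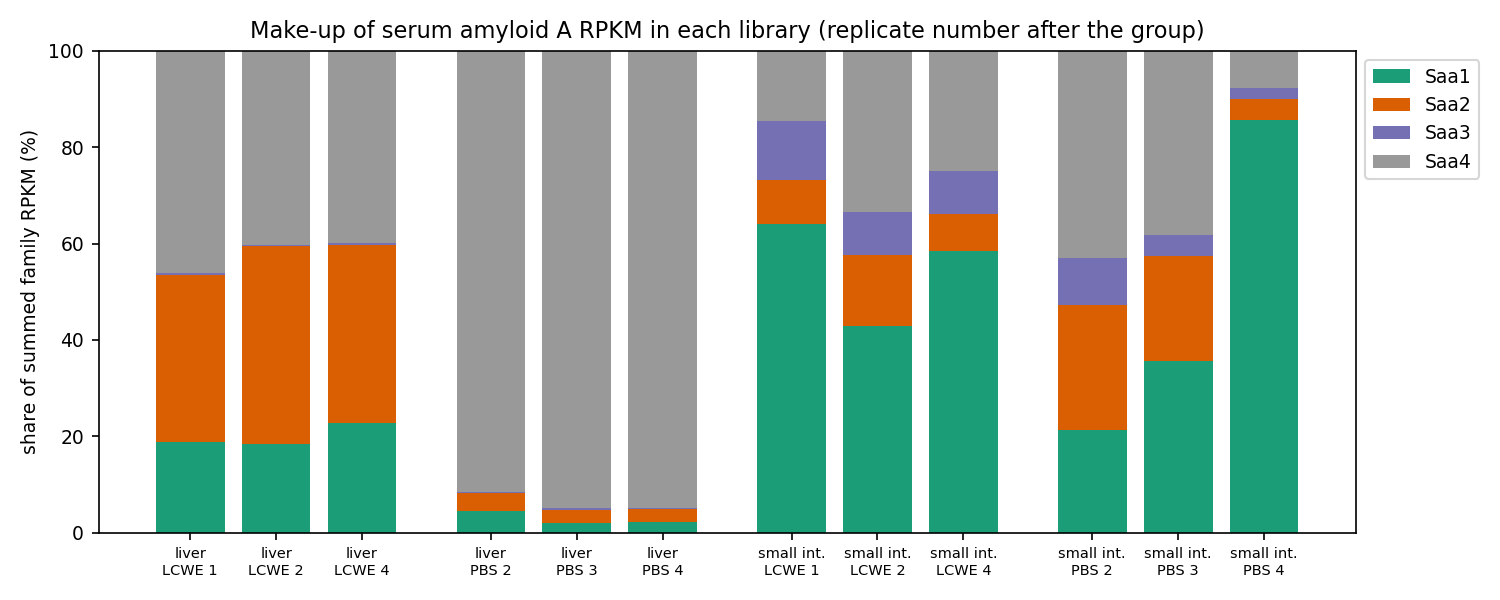
Share of each member in the summed serum amyloid A RPKM (percent, deposited gene lengths) in each of the 12 libraries, with the replicate number after the group. Saa4 fills 91.6% to 94.9% of the PBS liver bars and 39.9% to 46.2% of the LCWE liver bars, and in the intestine the Saa1 share runs from 21.3% in PBS replicate 2 to 85.5% in PBS replicate 4.

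Of the near-identical pair, Saa2 stood higher relative to Saa1 in LCWE livers than in PBS livers. The Saa2 over Saa1 ratio of RPKM was 1.82, 2.24 and 1.64 in liver LCWE replicates 1, 2 and 4, against 0.795, 1.30 and 1.28 in liver PBS replicates 2, 3 and 4. The groups did not overlap and the ratio was 1.73 times higher in LCWE, with an exact two-sided permutation p of 0.1, the smallest that 3 against 3 libraries allow, and 0.171 after adjustment over 12 ratio tests. All 6 ratios between members were without overlap in liver, and in the intestine only that of Saa2 over Saa3 was, with 1.08 ± 0.496 in LCWE and 3.24 ± 1.57 in PBS (exact permutation p = 0.1, 0.171 adjusted). The 6 ratios are built from the same 4 genes and are not separate observations. No share of ratios without overlap was computed over other gene pairs, so this count has no background. The largest shift was in Saa2 over Saa4, 0.898 ± 0.139 in LCWE and 0.0322 ± 0.00642 in PBS (SD, n = 3 each). In the intestine the Saa2 over Saa1 ratio was 0.141, 0.343 and 0.130 in LCWE replicates 1, 2 and 4, against 1.22, 0.612 and 0.0531 in PBS replicates 2, 3 and 4, with overlap.

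The 4 nearest genes on each side of the cluster were Sergef, Tph1, Gm45629 and Saal1 on the side of Saa3, and Hps5, Gm45309, Gtf2h1 and Gm9392 on the side of Saa2. Of these 8, 5 could be tested in liver, with log2 fold changes of -0.45 to 0.16, and 7 in the intestine, with log2 fold changes of 0.03 to 0.47. None was called in either tissue. Of all genes tested, 3.39% were called higher and 0.646% lower in liver and 0% in the intestine, so the count of 0 is near the background and says nothing particular about the neighbours. Saal1, a gene named for a likeness to serum amyloid A that lies next to Saa3, stood at 0.697 ± 0.0786 RPKM in liver LCWE and 0.657 ± 0.0733 RPKM in liver PBS (log2 fold change 0.05, limma adjusted p = 0.868). The pseudogene Saa-ps, between Saa4 and Saa1, had at most 3 reads in any library and 0 in 8 of the 12, where a count of 0, taken as allowing up to 3 reads, leaves room for 0.233 to 0.309 RPKM.

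**Figure D4:**
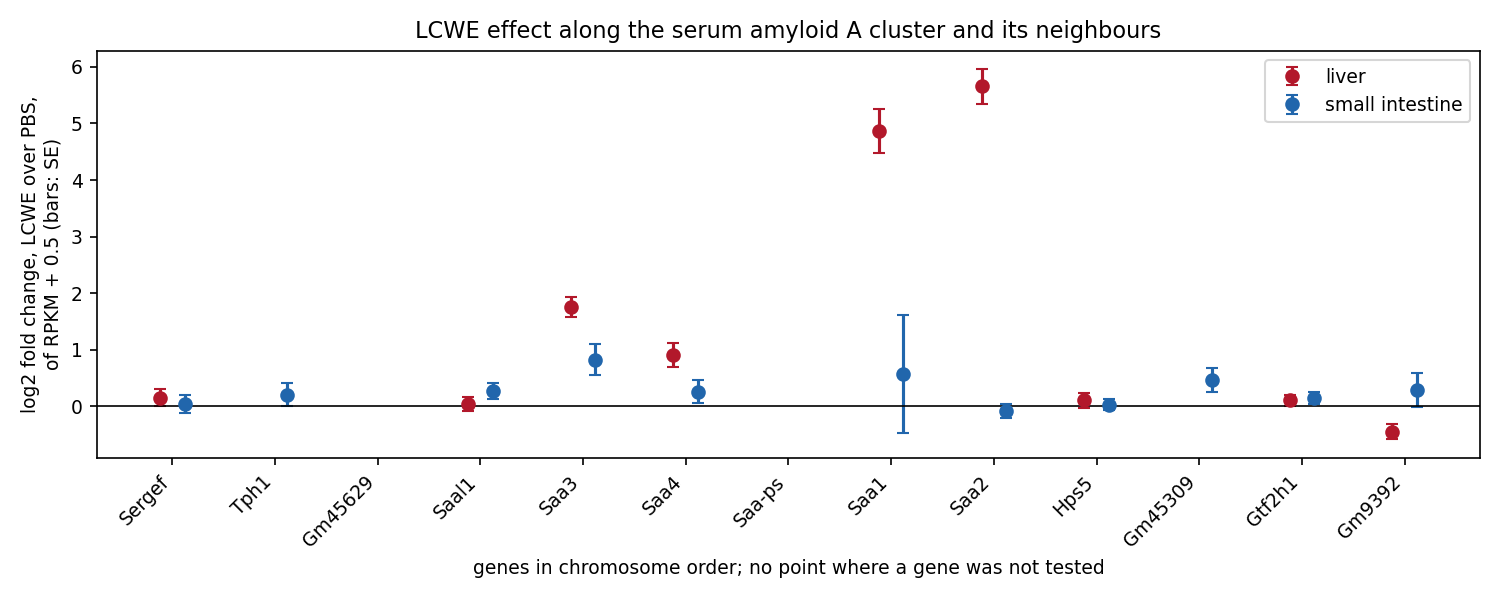
Log2 fold change of LCWE over PBS (bars are SE) for the serum amyloid A genes and the 4 genes on each side, in chromosome order. In liver Saa1 and Saa2 stand at 4.87 and 5.65 and the tested flanking genes lie between -0.45 and 0.16; a gene without a point did not pass the filter on low values.

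The genes that carry the inducing signals to the Saa promoters were looked at as a list of 28, of which 23 passed the filter in liver. By limma, 6 rose and 0 fell in liver, against 3.39% and 0.646% of all genes tested. Of the 23, 17 (73.9%) were higher, against 60.2% of all genes tested in liver, and their median log2 fold change was 0.43, against 0.06. Il1rn and Osmr, which are among the 6 and the 17, were below 0.5 RPKM in every PBS liver. They were tested only through their LCWE levels and could only come out higher, so the counts and the median depend in part on the filter. Il1r1, the signalling receptor of interleukin-1, stood at 10.1, 13.96 and 8.42 RPKM in LCWE, against 2.82, 4.06 and 4.99 RPKM in PBS (2.54-fold, limma adjusted p = 0.0364). Stat3, the factor downstream of interleukin-6, stood at 13.1, 13.99 and 14.6 RPKM in LCWE, against 9.69, 8.80 and 9.15 RPKM in PBS (1.48-fold, limma adjusted p = 0.0296). Both were without overlap. The other 4 called were Il1rn, the interleukin-1 receptor antagonist (2.002-fold), Nfkbiz, an atypical member of the I-kappa-B family (2.13-fold), Osmr, the oncostatin M receptor (1.54-fold), and Il10rb, a chain of the receptors for interleukin-10 and interleukin-22 (1.55-fold). The limma adjusted p-values of the 6 were 0.0296 to 0.0463, near the threshold, and the count fell to 0 when LCWE replicate 1, 2 or 4 or PBS replicate 3 or 4 was left out. Some listed genes were lower in LCWE livers without overlap and were not called. Il1rap, the interleukin-1 receptor accessory protein, stood at 8.05 ± 0.663 RPKM in LCWE and 11.5 ± 0.906 RPKM in PBS (0.712-fold, limma adjusted p = 0.0635). Cebpa, a C/EBP factor, stood at 52.3 ± 10.7 RPKM in LCWE and 67.9 ± 7.33 RPKM in PBS (limma adjusted p = 0.295).

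Of the cytokines themselves, Il6 averaged 0.0267 ± 0.0234 RPKM in liver LCWE and 0.0270 ± 0.00868 RPKM in liver PBS and was too low to test, as were Tnf, Osm, Lif and Il22. Tnf, the gene of tumour necrosis factor, stood at 0.402, 0.516 and 0.369 RPKM in liver LCWE, against 0.109, 0.0681 and 0.0931 RPKM in liver PBS, higher in LCWE without overlap but untested. Osm and Lif were at 0.0728 RPKM or less in every liver and Il22 at 0. Il1b stood at 3.50 ± 1.48 RPKM in liver LCWE and 4.65 ± 0.565 RPKM in liver PBS (limma adjusted p = 0.436). Socs3, the feedback inhibitor that STAT3 induces, stood at 2.93, 4.55 and 15.3 RPKM in liver LCWE, against 2.48, 1.93 and 1.22 RPKM in liver PBS. The groups did not overlap, but the gene was uneven within LCWE and did not pass (2.80-fold, limma adjusted p = 0.210). In the intestine none of 25 tested members was called, and neither was any of all 17510 genes tested there. The smallest p of the list belonged to Jak2, a kinase of the interleukin-6 receptor, with 28.2 ± 3.89 RPKM in LCWE and 37.5 ± 2.11 RPKM in PBS (limma adjusted p = 0.286).

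Among 10 genes proposed as receptors or binding partners of SAA, 7 were tested in liver. All 7 were higher in LCWE and 3 were called, where 3.39% of all genes tested in liver were called higher. Fpr2, a formyl peptide receptor of myeloid cells that SAA can activate, stood at 0.651, 0.807 and 0.644 RPKM in liver LCWE, against 0.104, 0.172 and 0.157 RPKM in liver PBS (1.86-fold on the log2(RPKM + 0.5) scale, limma adjusted p = 0.0176). P2rx7, an ATP-gated channel, was 1.85-fold higher (limma adjusted p = 0.0157) and Fpr1 1.71-fold (limma adjusted p = 0.0381). All 3 are expressed by myeloid cells. In the same livers the summed RPKM of 8 neutrophil markers was 17.2 to 35.0 in LCWE and 1.63 to 4.44 in PBS, with 3 of the 8 tested and all 3 called higher, of which S100a8 and Csf3r were below 0.5 RPKM in every PBS liver and were tested only through their LCWE levels. The third, S100a9, stood at 20.1 ± 9.02 RPKM in LCWE and 2.15 ± 1.43 RPKM in PBS. The defining Ly6g was at 0.0486 ± 0.0648 RPKM in LCWE and 0.00900 ± 0.0156 RPKM in PBS, and the part of myeloid cells in the receptor values was not tested. The 3 receptors were likewise below 0.5 RPKM in every PBS liver and passed the filter on low values only through their LCWE levels, as did Il1rn and Osmr above, so their counts support no statement about the list. The receptor count fell to 0 without LCWE replicate 1, 2 or 4 or PBS replicate 3 or 4. In the intestine 8 were tested and none was called, where 0% of all genes tested were called. The smallest p of the list was that of Cd36, a lipid scavenger receptor, at 2.41 ± 0.176 RPKM in LCWE and 6.89 ± 1.18 RPKM in PBS (limma adjusted p = 0.154).

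Genes of high-density lipoprotein and retinol transport, the carriers with which SAA circulates, did not pass in liver: 0 of 19 tested were called, where 3.39% of all genes tested were called higher and 0.646% lower. The count of 0 is near this background and says nothing particular about the carriers. Of the 19, 3 (15.8%) were higher, against 60.2% of all genes tested in liver, and the median log2 fold change was -0.26, against 0.06. The smallest p belonged to Pon1, a lipoprotein-bound esterase (37.0 ± 1.63 RPKM in LCWE and 47.9 ± 3.11 RPKM in PBS, limma adjusted p = 0.0876), and Rbp4, the retinol carrier of plasma (774 ± 3.22 RPKM in LCWE and 1022 ± 90.3 RPKM in PBS, limma adjusted p = 0.0951). Apoa1, the main apolipoprotein of these particles, stood at 6394 ± 698 RPKM in LCWE and 8339 ± 3796 RPKM in PBS. In the intestine 0 of 17 were called, where 0% of all genes tested were called. Apoa4 and Rbp2, a retinol binding protein of enterocytes, had the smallest p of the list, and Rbp2 stood at 71.8 ± 41.9 RPKM in LCWE and 434 ± 284 RPKM in PBS (limma adjusted p = 0.235). Enterocyte markers summed to 1709 to 5857 RPKM in intestinal LCWE and 8965 to 18322 RPKM in intestinal PBS, and their part in these values was not tested.

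**Figure D5:**
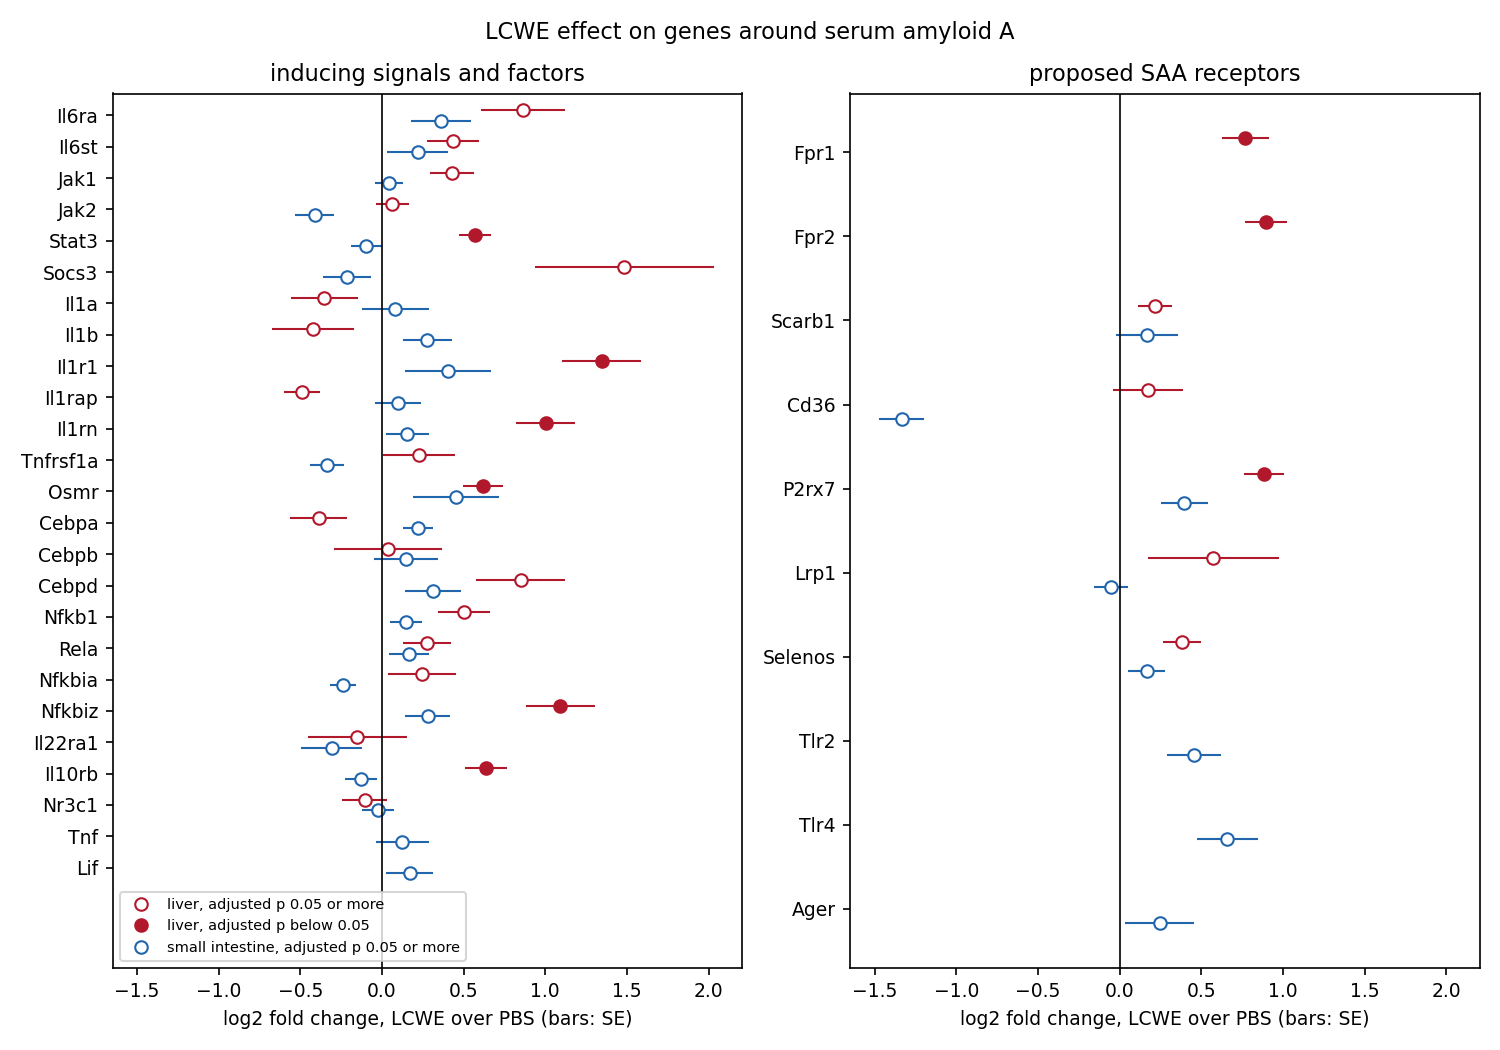
Log2 fold change of LCWE over PBS (bars are SE) in liver and small intestine for genes of the inducing signals and for proposed SAA receptors that passed the filter on low values. Filled points passed at an adjusted p below 0.05: 6 of 23 signalling genes and 3 of 7 receptor genes in liver, and none in the intestine. Il1rn, Osmr and the 3 filled receptor genes passed the filter only through their LCWE levels.

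The genes whose levels followed each member most closely were ranked by Pearson correlation of log2(RPKM + 0.5) over the 12 libraries, which share tissue as well as treatment, and are given as a description. For Saa2 the first was Orm2, an acute phase orosomucoid (r = 0.987), at 587 RPKM on average in liver LCWE, 18.3 RPKM in liver PBS, 1.40 RPKM in intestinal LCWE and 1.46 RPKM in intestinal PBS. For Saa1 they were led by Dnajb9, a chaperone cofactor of the endoplasmic reticulum (r = 0.953), and S100a9, a calcium-binding protein of neutrophils (r = 0.950). For Saa3 the first named was Pdia4, a protein disulfide isomerase (r = 0.948), with Hspa5, the main chaperone of the endoplasmic reticulum (r = 0.940), among the first 5. Saa4 followed liver-restricted genes, led by Cyp7a1, the rate-limiting enzyme of bile acid synthesis (r = 0.999), and Itih3, an inter-alpha-trypsin inhibitor chain of plasma (r = 0.999). Over the 6 liver libraries alone the first for Saa4 was Serpina10, an inhibitor of clotting factors (r = 0.994), for Saa3 Lgals3, a lectin of macrophages (r = 0.9997), and for Saa2 Wars, a tryptophan tRNA ligase (r = 0.9999). Over the 6 intestinal libraries none of these genes was among the first 5 of any member.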

How the data were processed

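Libraries of total RNA were grouped by the tissue and treatment in the labels. Per the submitters' processing notes, which give no roles, the build was mm10 and the tools included Trimmomatic 0.36, featureCounts, Subread 1.5.1 and edgeR 3.12.1; neither the aligner nor the strandedness is given in the sources used here. The authors deposited RPKM values for each gene and library, which are reads per kilobase of the table's gene length scaled to the library's reads in genes, as checked on the values. The table has 16 library columns; 12 were mapped to samples, and the 4 that could not be mapped were left out. Multiplied by length, 100% of the values gave whole reads within a tolerance of 0.001, so depth is known. A second deposited table gives the authors' log2 fold change, p-value and false discovery rate.

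Genes reaching 0.5 RPKM in 3 or more libraries of a fit were tested on log2(RPKM + 0.5) by limma 3.58.1 (R 4.3.3; trended empirical Bayes moderation). Fold changes are on that scale and understate changes of low genes. Each tissue was fitted apart; tissue differences and PBS levels came from 1 fit over 4 groups. Alternatives tried were other pseudocounts (0.1 and 1) and filters (none, or RPKM 1), quantile scaling, limma voom on the recovered reads, a replicate block, 1 fit over 4 groups, leaving out each library, Saa1 and Saa2 summed and, added after seeing the data, median-ratio scaling and coding transcript lengths. The procedure was tested on simulated data.

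The members and gene lists were chosen with earlier results of these data known. By rule the text draws on the 4 members, every called member and the 3 smallest p-values of each list, 4 genes on each side of the cluster, and the 5 genes most correlated with each member, and it names only some of these. Promoters are from RefSeq (GRCm38.p6, 4 of 4 members matched) and transcripts from GENCODE M21. Identity was counted on Biopython 1.88 global alignments.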

Additional observations from a re-analysis of the deposited data

Results flagged for a closer look

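The effect of LCWE on Saa2 differed between the tissues, as tested by the interaction term of 1 limma fit over the 12 libraries. The liver effect was 5.65 and the intestinal effect -0.08 on the log2 scale, and the liver effect minus the intestinal effect was 5.73 (SE 0.34, limma adjusted p = 6.14e-05). All 3 LCWE livers were above all 3 PBS livers, while the intestinal groups overlapped. The other 3 members did not pass this test. The Saa2 call was lost with a replicate block (limma adjusted p = 0.0623) and when Saa2 was summed with Saa1 (limma adjusted p = 0.0526). Treatment and gut position cannot be told apart in the intestinal part of this difference.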

How the results depend on the processing

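Over 20 results on the members, 322 values were recomputed under alternatives: 296 kept their direction and their side of the threshold, 9 lost a call, 11 gained one and 6 turned their direction. Saa1 and Saa2 stayed called in liver under all 16 alternatives each, with log2 fold changes of 4.54 to 5.36 and 5.36 to 5.89. In liver, Saa4 passed in 1 fit over the 4 groups (0.91). Over leave-one-out fits, liver Saa3 ranged from 1.60 to 1.90 and Saa4 from 0.73 to 1.12, intestinal Saa1 from -0.25 to 1.82 and Saa1 and Saa2 summed from -0.33 to 1.35 in the intestine. Intestinal Saa2 turned to 0.32 when summed with Saa1. The tissue difference of Saa2 was 5.04 as part of that sum and no longer passed. The difference of the sum passed with a pseudocount of 1 (5.07), a filter at RPKM 1 (5.04), median-ratio scaling (5.02) and voom (4.94), and ranged from 4.003 to 5.69 over leave-one-out fits. Between PBS tissues, the summed pair lost its call with no filter (1.81) and ranged from 1.16 to 2.84 over leave-one-out fits, and Saa1 passed as part of the sum (1.81) and ranged from 0.44 to 2.51. Intestinal Saa3 gave no value with the filter at RPKM 1. The causes were not tested.

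Replicate numbers 2 and 4 occur in both treatments, but the labels do not say that they pair libraries, and deviations of same-numbered libraries correlated at -0.10 and -0.05 in liver and 0.09 and 0.12 in the intestine. In a fit with the replicate block, replicate 1, found only in LCWE, and replicate 3, found only in PBS, each stand alone in a block. The LCWE effects of that fit therefore rest on replicates 2 and 4 only, so fewer calls may reflect fewer libraries as well as the block. With the replicate block, liver Saa3 (1.67, limma adjusted p = 0.131) and the tissue difference of Saa2 (5.66, limma adjusted p = 0.0623) lost their calls, and intestinal Saa1 (-0.0731) and the intestinal sum (-0.26) turned negative. With the block 24 genes were called in liver, against 582 without it, and 0 for the tissue difference, against 137. Liver calls numbered 335 with no filter, 898 in 1 fit over 4 groups and 55 to 943 over leave-one-out fits, and the tissue difference gave 206 with median-ratio scaling and 20 to 461 over leave-one-out fits; the signalling list had 2 calls with no filter, 1 with quantile scaling, 2 with median-ratio scaling and 0 with the block, and the receptor list had 1 with a filter at RPKM 1 and 0 with the block. Low counts limit intestinal Saa3, with 20 to 171 reads per library.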
